A study of Mus musculus with 4 samples.

Results

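Of the 5358 genomic regions with a SOX3 peak in each of 3 ChIP replicates, 949 (17.71%, 95% Wilson interval 16.71 to 18.76%) lay in gene deserts. Without replicate 1, regions common to the other 2 lists gave 1459 such sites, a share of 18.81%. Peaks that overlapped by at least 1 bp were merged into regions. A region counted as a desert site where its midpoint fell outside every protein-coding gene body and more than 100 kb from the nearest transcription start site (TSS) of a protein-coding gene. Positions alone chose these sites, on the mm9 mouse genome with the GENCODE vM1 annotation of 22367 protein-coding genes. The other regions were 1794 near intergenic regions (up to 100 kb from a TSS), 1648 regions inside genes and 967 within 2000 bp of a TSS, called promoter regions here.

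The cells were neural progenitors made from mouse R1 embryonic stem cells, an established line, by 4 days of monolayer culture in N2B27 medium. Chromatin from 3 biological replicates was precipitated with a SOX3 antibody (AF2569), and input DNA taken without antibody was the authors' background. The labels name no mutation, treatment or second condition, so SOX3 ChIP with n = 3 is the only replicated group. The lists held 18816, 8096 and 40543 peaks in replicates 1, 2 and 3. They are peak calls and hold no read counts, so the depth behind each site is unknown. The 3 lists were not equally alike. Matched peaks of replicates 2 and 3 started at the same base in 37.7%. That share was 1.48% for replicates 1 and 2, and 2% for replicates 1 and 3. The median distance between peak middles was 11.5 bp for replicates 2 and 3, against 29 and 32.5 bp for the other pairs. The cause was not tested, so the 3 lists may not be equally independent.

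SOX3 belongs to the SOXB1 group of HMG-box transcription factors, which mark neural progenitors and bind short A/T-rich words in the minor groove of DNA, often beside a partner protein such as a POU-domain factor. Gene deserts are long stretches of the genome with no protein-coding gene. Many of them flank genes for developmental regulators and hold enhancers that act over long distances, so the nearest gene need not be the gene controlled.

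The stretches below come from named desert sites that held a composite SOX/POU word or a POU octamer, and they are shown because these words set the sites apart from the DNA beside them. Letters are from the mm9 reference, plus strand, 5′ to 3′. Capitals mark the SOX word (AACAAA or AACAAT), its variant the GACAA word (GACAAA or GACAAT), the POU octamer (ATGCAAAT or ATGCTAAT) and the composite word (TTGTNATGC), each on either strand and in places overlapping. The first 3 stretches are from 3 sites of 1 gap beside the homeobox gene Irx3, and the next is from a site beside the Notch ligand gene Dll1. Then come 2 from sites that ranked near the top of every list, and the last is from the site farthest from any TSS.
Irx3 to 4933436C20Rik, chr8:94658069-94658268: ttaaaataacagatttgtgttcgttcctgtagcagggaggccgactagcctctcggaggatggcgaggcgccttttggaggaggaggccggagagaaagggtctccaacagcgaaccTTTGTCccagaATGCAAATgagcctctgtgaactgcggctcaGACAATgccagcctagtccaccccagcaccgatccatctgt
Irx3 to 4933436C20Rik, chr8:94595687-94595886: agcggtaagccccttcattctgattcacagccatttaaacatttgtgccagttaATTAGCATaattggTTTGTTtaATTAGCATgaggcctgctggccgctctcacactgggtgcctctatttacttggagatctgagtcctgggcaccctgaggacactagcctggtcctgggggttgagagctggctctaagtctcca
Irx3 to 4933436C20Rik, chr8:94740281-94740480: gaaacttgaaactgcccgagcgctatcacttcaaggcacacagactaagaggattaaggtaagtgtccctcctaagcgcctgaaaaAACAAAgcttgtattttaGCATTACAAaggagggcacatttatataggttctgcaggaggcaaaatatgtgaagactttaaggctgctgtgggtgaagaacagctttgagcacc
2210404J11Rik to Dll1, chr17:15345137-15345336: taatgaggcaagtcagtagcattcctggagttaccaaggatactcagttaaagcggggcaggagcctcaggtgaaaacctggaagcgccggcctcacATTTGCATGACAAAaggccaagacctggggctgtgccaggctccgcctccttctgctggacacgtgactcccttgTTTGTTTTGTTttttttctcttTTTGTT
Fam98a to Gm16391, chr17:76511198-76511397: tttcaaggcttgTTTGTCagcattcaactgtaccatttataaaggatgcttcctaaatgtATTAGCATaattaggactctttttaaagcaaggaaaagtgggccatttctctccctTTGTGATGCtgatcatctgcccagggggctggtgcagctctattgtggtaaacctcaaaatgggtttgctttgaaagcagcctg
Arhgap15 to Gtdc1, chr2:44380990-44381189: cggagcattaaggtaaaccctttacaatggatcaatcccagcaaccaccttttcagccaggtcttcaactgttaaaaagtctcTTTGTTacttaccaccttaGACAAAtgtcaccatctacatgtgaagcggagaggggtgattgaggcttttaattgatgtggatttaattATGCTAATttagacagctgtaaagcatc
Cntnap5b to Cdh20, chr1:103815564-103815763: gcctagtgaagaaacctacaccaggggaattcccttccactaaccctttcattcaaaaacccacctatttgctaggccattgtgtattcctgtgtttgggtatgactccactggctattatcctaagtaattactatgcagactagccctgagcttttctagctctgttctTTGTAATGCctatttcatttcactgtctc

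Desert sites were sparse for the room they had. Deserts held 780.3 Mb of known bases, 30.5% of the genome, but 17.71% of the common regions. The density was 1.216 sites per Mb (exact Poisson 95% interval 1.14 to 1.296). It was 2.397 (2.288 to 2.511) in near intergenic DNA, 1.795 (1.71 to 1.884) inside genes and 8.632 (8.096 to 9.193) at promoters. Intervals on sites cover counting error only, since sites are not replicates. The density went on falling inside the deserts. It was 1.632 per Mb (1.475 to 1.802) from 100 to 200 kb of a TSS, with 394 sites, and 1.256 (1.134 to 1.386) from 200 to 500 kb, with 391 sites. It was 0.7934 (0.6629 to 0.9421) from 500 to 1000 kb, with 130 sites, and 0.5347 (0.3703 to 0.7472) beyond 1000 kb, with 34 sites. The intervals of the last 2 bins overlap, and those of the other neighbouring bins do not.

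**Figure D1:**
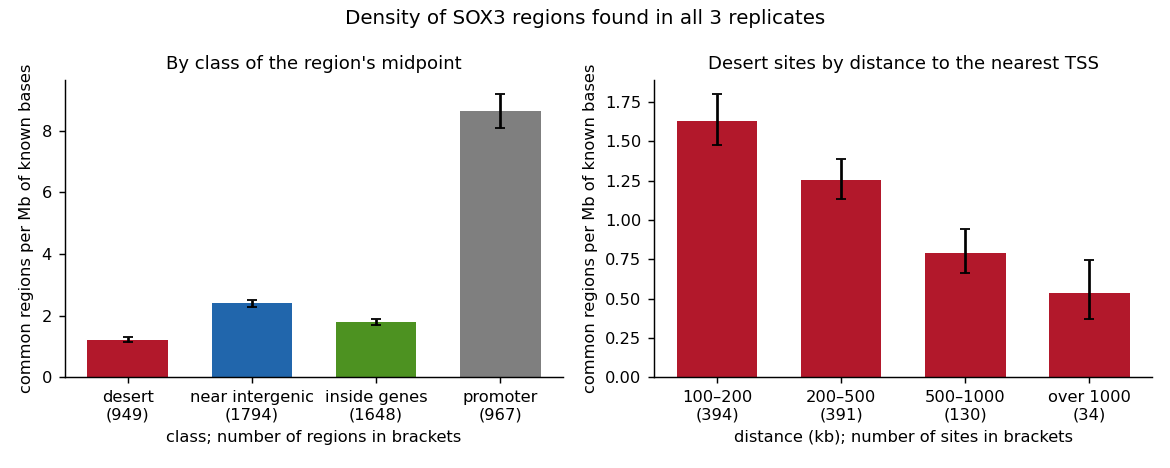
Common SOX3 regions per Mb of known bases, by class of the midpoint (left) and, for desert sites, by distance to the nearest protein-coding TSS in kb (right), with exact Poisson 95% intervals as error bars. Desert sites are the sparsest class at 1.216 per Mb, and their density falls from 1.632 per Mb at 100 to 200 kb to 0.5347 per Mb beyond 1000 kb.

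The median desert site lay 236.3 kb from the nearest TSS, with quartiles of 150.1 and 410 kb and a maximum of 2146 kb. It sat in a gap between gene bodies of 808.7 kb (median, range 24.21 to 4520 kb). Of the 949 sites, 801 were more than 100 kb from both flanking gene bodies and 14 were under 10 kb from one. Sites were 406 bp wide (median) with 45.74% GC, against 41.02% in windows of the same width placed 2000 bp away on each side. The orientation of the flanking genes followed that of the desert bases. Both genes had their starts toward the gap for 23.08% of sites and 24.33% of desert bases, and both had their ends toward it for 27.5% of sites and 26.66% of bases. The median distance to the next common region was 175.4 kb, against 69.98 kb for near intergenic regions. A neighbour within 10 kb was found for 10.85% of desert sites and 22.24% of near intergenic regions, a difference of -11.4 percentage points (95% Newcombe interval -14.1 to -8.55). The chromosomes differed in density, for desert sites and for all common regions. Per Mb of desert, chromosomes 1, 8, 13 and 19 held 1.663, 2.165, 1.754 and 1.757 sites, and X held 0.4275. Over all common regions and bases the densities of these chromosomes were 3.003, 3.454, 2.75 and 4.059 per Mb, and 0.7404 on X. The whole list of replicate 3 held 27.99, 30.12 and 33.31 peaks per Mb on chromosomes 1, 8 and 19, and at most 16.84 on any other. Chromosomes 1 and 8 held 21.1% of desert sites on 13.8% of desert bases. Of the fullest gaps described below, those beside Irx3, Efnb2, Cntnap5b, Cntnap5a and Tmem182 lie on chromosome 1 or 8. The cause of the chromosome differences was not tested.

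The peaks at desert sites were about as strong as those inside and near genes. The score of a peak is 10 times the negative log10 of its MACS p-value, so the threshold of 1e-05 gives a lowest score of 50. Over the 949 sites the median score was 184.3 in replicate 1, 113.7 in replicate 2 and 205.6 in replicate 3, and scores ran from just over 50 to 3100 in each. Since the lists differ in size, each score was also ranked within its own list. The median percentiles were 83.18, 67.6 and 93.67 in replicates 1, 2 and 3. Replicate 2, the shortest list, gave the lowest of the 3 percentiles at 741 sites (78.08%). A score of 100 or more in each replicate, a p-value of 1e-10 or less, was reached by 509 desert sites (53.6%, 95% Wilson interval 50.5 to 56.8%) and by 50.1% of all common regions.

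A desert site drawn at random outscored a near intergenic region with probability 0.513 (replicate 1), 0.524 (replicate 2) and 0.535 (replicate 3), each slightly above an even chance. Against regions inside genes the probabilities were 0.49, 0.496 and 0.511, so the replicates did not share a direction. Against promoter regions they were 0.527, 0.574 and 0.6, in favour of desert sites in 3 of 3 replicates. With 3 replicates of 1 group a two-sided exact sign test cannot give a p below 0.25, so no p is given for these ranks. The lowest percentile over the replicates had medians of 66, 64.45, 63.71 and 56.35 in the 4 distance bins, from near to far.

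**Figure D2:**
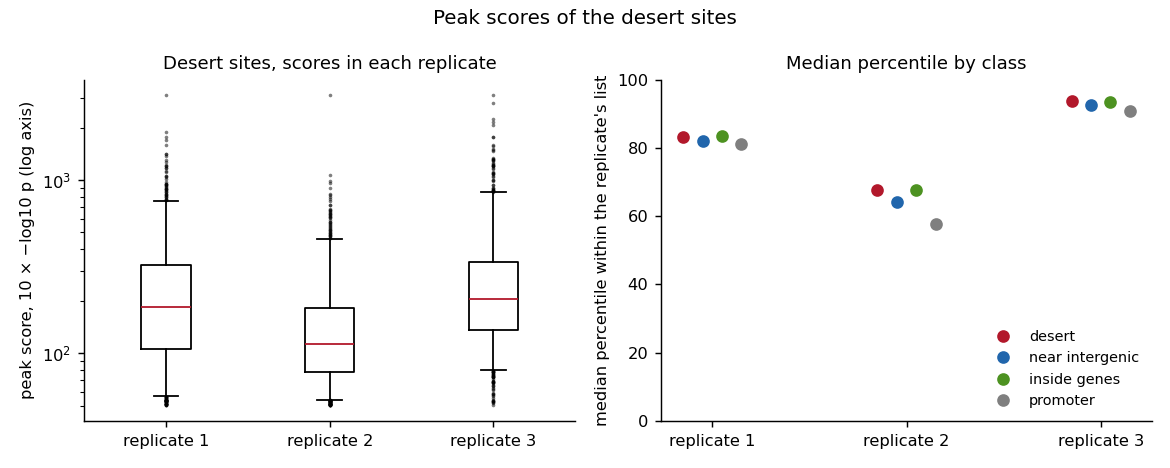
Left, peak scores of the 949 desert sites in each replicate on a log axis (box between the quartiles, line at the median, whiskers at the 5th and 95th percentiles, points beyond). Right, the median percentile within each replicate's list for each class of region. The desert medians of 83.18, 67.6 and 93.67 lie close to those of regions inside genes (83.4, 67.79 and 93.33) and above those of promoter regions (81.26, 57.81 and 90.97).

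The SOX word was more frequent in desert sites than in each other class of region. It was present in 691 of 949 desert sites (72.81%, 69.9 to 75.55%), against 62.8% of all common regions, and in 58.12% of the flanking windows of the same width. The share exceeded that of near intergenic regions by 9.85 percentage points, of regions inside genes by 7.48 and of promoter regions by 24.3. The Newcombe intervals of these differences, adjusted for 47 comparisons by Bonferroni, left out 0 (3.69 to 15.7, 1.28 to 13.4 and 17.1 to 31.2 points). The difference from regions inside genes depended on the settings, since its interval held 0 in 5 of 11 others, among them the one without mostly multi-copy regions (5.27 points, -1.01 to 11.2). That from near intergenic regions held 0 at a p-value of 1e-10 or less (3.56 points, -4.53 to 11.1). Without replicate 1 the word was in 60.63% of desert sites, 54.75% of near intergenic regions and 54.92% of regions inside genes. The word is A/T-rich, and the DNA beside desert sites was lower in GC (41.02%) than that beside near intergenic regions (44.42%). Promoter regions themselves had a median GC of 57.76%, against 45.74% in desert sites. They held the word in 48.5%, below the 53.7% of their own flanking windows. The part of base composition in these differences was not tested. The flanking windows of near intergenic regions held the SOX word in 53.6%. The ratio of sites to flanks was 1.25 in deserts, 1.17 in near intergenic regions, 1.19 inside genes and 0.903 at promoters. In 200 bp around the site's centre, where widths are equal, the shares were 58.38% in desert sites and 35.55% in the flanking windows. At least 2 copies were present in 342 sites (36.04%), and the SOX word or the GACAA word in 813 (85.67%).

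The composite SOX/POU word, in which a SOX half-site and a POU half-site stand 1 base apart, had the largest ratio to the flanks. It was present in 111 desert sites (11.7%, 9.805 to 13.9%) and 1.266% of the flanking windows, a ratio of 9.24, against 7.86% of all common regions. The difference from regions inside genes was 5.02 points (adjusted interval 1.24 to 9.25) and from promoter regions 7.97 (4.04 to 12.1). The difference from near intergenic regions was 2.55 points, and its adjusted interval held 0 (-1.34 to 6.88). Part of these differences lay in similar stretches of DNA around the word, described below. Regions whose word had at least 1 similar stretch in another region, by a comparison without gaps, were then left out. The word was in 57 of the remaining 895 desert sites (6.369%) and 77 of 1614 regions inside genes (4.771%). That difference was 1.6 points and no longer held up (adjusted interval -1.4 to 5.13), while the difference from promoter regions was 3.96 points (0.833 to 7.39). The POU octamer was present in 141 desert sites (14.86%, 12.74 to 17.26%) and 4.378% of the flanking windows, against 11.6% of all common regions. The octamer difference from near intergenic regions, 3.2 points, did not hold up either (adjusted interval -1.14 to 7.94). Both words overlapped little, since 22 sites held both, and in 15 of those a composite word overlapped an octamer. The octamer and the SOX word occurred together in 100 sites (10.54%).

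Among the other words, CAGCAGG, the core bound by ZIC zinc finger factors of the neural plate, stood out from the flanks. It was present in 30.77% of desert sites (27.92 to 33.78%) and 8.439% of flanking windows, a difference of 22.3 points (adjusted interval 17.1 to 27.8). It was also present in 26.99% of near intergenic regions and 28.05% of regions inside genes, and the adjusted intervals of the desert differences from both held 0 (-2.09 to 9.84 and -3.27 to 8.88). The GACAA word was present in 50.37% of desert sites and 39.98% of their flanks, and its share differed from near intergenic regions by 0.00629 points (adjusted interval -6.53 to 6.54). E-boxes of the proneural kind (CAGCTG or CAGATG) were present in 44.15% and 37.5%, a difference of 6.65 points (0.285 to 13). The homeodomain word TAATTA was present in 18.02% of sites and 15.82% of flanks, a difference whose adjusted interval held 0 (-2.54 to 7.31). It was more frequent in desert sites than in near intergenic regions by 5.14 points (0.473 to 10.2). In 200 bp windows that difference was 2.05 points, and its adjusted interval held 0 (-1.35 to 5.94). The flanking windows differed in the same direction, with 15.82% beside desert sites and 12.01% beside near intergenic regions. The spaced word for CTCF and those for KLF factors (CCACACCC) and AP-1 (TGAGTCA) were present in 1.159%, 2.107% and 5.901% of desert sites, none above its flanks. The spaced NFI word was present in 0 of 949 sites, which allows a share of up to 0.4032% (upper Wilson bound). None of the SOX, GACAA, octamer and composite words was present in 105 sites (11.06%), of which 47 were mostly multi-copy as defined below.

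**Figure D3:**
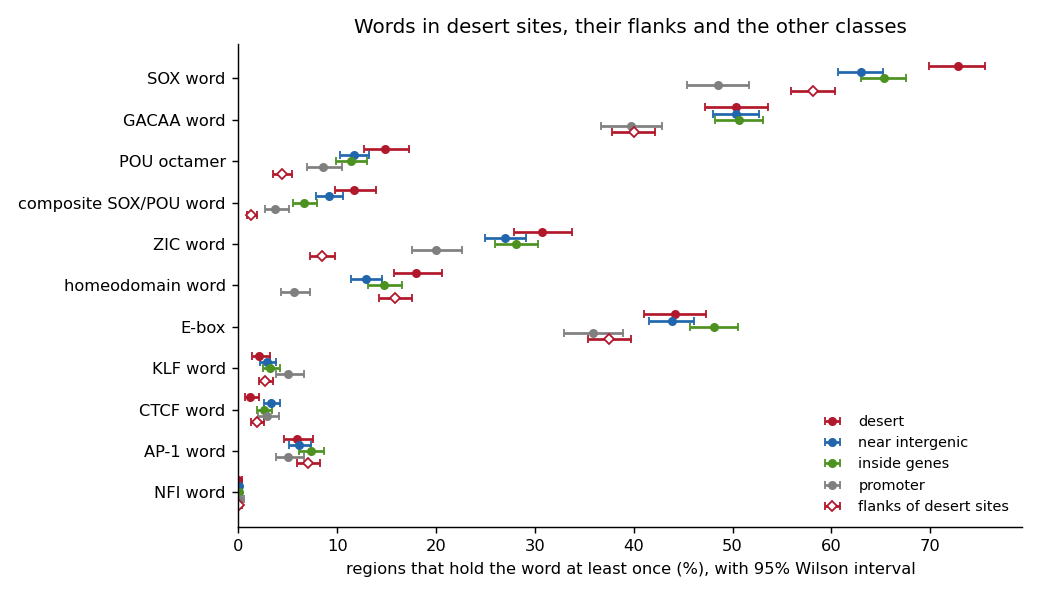
Share of regions that hold each word at least once, in percent with 95% Wilson intervals, for desert sites, the other 3 classes and the flanking windows of desert sites (open diamonds). The SOX word is at 72.81% in desert sites and 58.12% in their flanks, and the composite word at 11.7% and 1.266%.

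The words gathered at the middle of the sites. In the 850 sites that were not mostly multi-copy and had a stretch covered by every replicate, the composite word was present in 3.94% of sites per 50 bp in the 2 central bins and in 0.141% per 50 bp beyond 500 bp, a ratio of 27.9. The ratios were 7.13 for the octamer, 6.92 for the ZIC word, 2.23 for the SOX word and 2.13 for the GACAA word. When the 851 sites that were not mostly multi-copy were split into 3 equal parts by their lowest percentile, the composite word was present within 200 bp in 7.07%, 10.2% and 11.3% from the lowest to the highest part. The GACAA word was present in 35.3%, 37.7% and 44%, and the SOX word in 61.8%, 61.6% and 61.6%. These shares by score are a description and were not tested. The composite word's shares at the centre and by score count the similar stretches described below as separate sites. No values without those stretches are given for them.

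**Figure D4:**
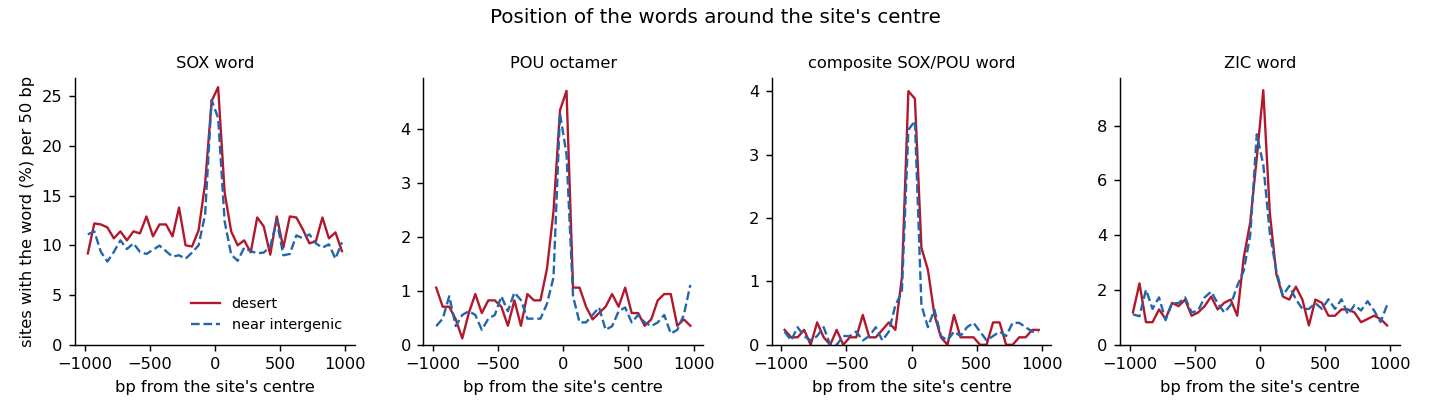
Share of sites with each word per 50 bp, in percent, against the distance in bp from the site's centre, for desert sites (solid) and near intergenic regions (dashed). All 4 words peak at the centre in both classes, the composite word at 3.94% against 0.141% beyond 500 bp in desert sites.

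Many of the composite words lay in stretches of similar DNA at scattered places. The 40 bases on each side of the word were compared between all common regions that hold it, without gaps and leaving out the word itself, and regions at 70% identity or more were linked. This comparison was chosen after the sequences were seen. Similar stretches of this kind can be copies of interspersed repeats, but no repeat annotation was used here, so whether these are was not tested. Of the 111 desert sites with the composite word, 54 (48.6%, 39.6 to 57.8%) had such a like region elsewhere, as did 45.1% of near intergenic, 30% of intragenic and 36.1% of promoter regions with the word. The largest group held 74 regions on 19 chromosomes, 28 of them desert sites, and the identity between its members had a median of 87.5% and ranged from 25 to 100%, since members were linked through others. The next largest held 60 regions (15 desert sites, median identity 72.5%, range 41.2 to 100%) and 14 regions (7 desert sites, median 95%, range 86.2 to 100%). The homeodomain word TAATTA stood beside the composite word in 26 of the 28, 14 of the 15 and 7 of the 7 desert sites of these groups. Of the 28 desert sites in the first group, 2 were mostly multi-copy by the measure defined below.

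The alikeness is visible in the sequences, given here from mm9 on the strand where the composite word, in capitals, reads TTGTNATGC. Groups are numbered by size. The sites shown are the desert sites of each group with the highest lowest percentile that were not mostly multi-copy, 4 of the first group and 2 of each other group.
Group 1, Ahr to Agr3, plus strand, chr12:36327391-36327479: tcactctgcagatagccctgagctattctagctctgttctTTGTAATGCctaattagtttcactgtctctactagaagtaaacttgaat
Group 1, Gm8991 to Gm3495, plus strand, chr5:16474882-16474970: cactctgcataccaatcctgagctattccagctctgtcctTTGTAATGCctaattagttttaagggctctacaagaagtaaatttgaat
Group 1, Gm9797 to Utrn, minus strand, chr10:11521544-11521632: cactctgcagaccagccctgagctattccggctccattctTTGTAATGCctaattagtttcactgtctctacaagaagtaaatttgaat
Group 1, Mmp16 to Cnbd1, minus strand, chr4:18322712-18322800: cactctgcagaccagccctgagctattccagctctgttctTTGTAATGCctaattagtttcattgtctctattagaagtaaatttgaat
Group 2, Ly96 to Jph1, minus strand, chr1:16814688-16814776: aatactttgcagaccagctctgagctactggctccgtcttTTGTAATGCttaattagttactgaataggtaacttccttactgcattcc
Group 2, Gm17684 to Gm9898, minus strand, chr1:30605751-30605839: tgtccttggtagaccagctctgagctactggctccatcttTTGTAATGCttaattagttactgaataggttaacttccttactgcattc
Group 3, Fam46a to Ibtk, minus strand, chr9:85528480-85528568: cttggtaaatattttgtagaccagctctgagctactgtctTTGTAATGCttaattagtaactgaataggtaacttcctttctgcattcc
Group 3, Pxmp3 to 1700008P02Rik, plus strand, chr3:5989298-5989386: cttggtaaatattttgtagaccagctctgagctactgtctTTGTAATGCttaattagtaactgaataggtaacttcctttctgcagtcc

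The site between Ahr and Agr3 scored 1046.47, 723.59 and 1496.51 in replicates 1, 2 and 3, and that between Gm8991 and Gm3495 scored 971.32, 602.78 and 1211.14. The site between Gm9797 and Utrn scored 674.43, 495.41 and 782.69. These sites are among the stronger peaks of each list, and the desert members of the first group ranged widely, with a median lowest percentile of 65.06 that lies close to the 65.11 of all desert sites. The site between Cntnap5b and Cdh20, farthest from a TSS, belongs to the first group as well, and the bases beside its composite word were 77.5% identical to those of the Ahr site. Its scores were 144.17, 92.33 and 180.62.

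Repeated sequence was less common in desert sites than in near intergenic regions. A region was called mostly multi-copy where more than 50% of its 50-base sequences occur in more than 1 place of the reference, 50 bases being the read length. This held for 98 desert sites (10.33%, 8.548 to 12.43%), against 14.8% of all common regions. The desert share was 5.501% at a p-value of 1e-10 or less, 5.939% with equal numbers of peaks per list and 26.94% without replicate 1, and the comparisons between classes that follow were not repeated under these settings. The share was 8.63 points below that of near intergenic regions (adjusted interval -12.9 to -3.97). It was 3.2 points below that of regions inside genes and 3.22 below that of promoter regions, with adjusted intervals that held 0 (-7.31 to 1.26 and -8.11 to 1.67). Multi-copy desert sites held the SOX word in 37.76% (28.79 to 47.64%) and the others in 76.85% (73.9 to 79.56%). Their median lowest percentile was 45.84 against 66.46.

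The 949 sites were spread over 564 gaps, 28.5% of the 1979 gaps between neighbouring protein-coding genes that hold desert bases. There were 341 gaps with 1 site, 130 with 2 and 93 with 3 or more, and the last held 348 sites. The fullest held 7. Sites of a gap share their flanking genes and are not independent of each other. The gene on either side was a predicted gene or one named as a pseudogene for 327 sites (34.5%), since the annotation counts many of these as protein-coding.

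Developmental transcription factor genes flanked 115 desert sites (12.1%, 10.2 to 14.3%), and gaps beside such genes held 8.98% of desert bases. When genes of every biotype bounded the gaps, the share fell to 7.514% of 519 sites (5.545 to 10.11%), on 3.57% of the desert bases so defined. With protein-coding genes alone as bounds, as in the main rule, the density beside these genes was 1.64 sites per Mb, against 1.22 over all deserts. Of the 145 such genes beside desert bases, 64 (44.1%) flanked a site, against 32% of all protein-coding genes beside desert bases. Among all 2743 intergenic common regions, 9.81% were flanked by a gene of this list. Signalling ligands and receptors flanked 30 sites (3.16%, on 2.1% of desert bases) and SOX genes 11 (1.16%, on 0.689%). POU-domain genes flanked 3 sites (0.316%, on 0.524% of desert bases), a density of 0.734 per Mb that lies below that of all deserts. These counts are a description and were not tested.

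Within the transcription factor list, Irx3 and Meis1 flanked 7 sites each. Irx3 (ENSMUSG00000031734), a homeobox gene that patterns the neural tube, borders a gap of 524.4 kb on chromosome 8 whose other side is 4933436C20Rik. The gap held 12 common regions, 7 of them desert sites spread over 173.9 kb, a density of 19.7 sites per Mb of its desert bases. Its strongest site, at chr8:94657844-94658623, scored 1181.54, 970.92 and 1783.1 in replicates 1, 2 and 3, and holds 2 SOX words, 2 GACAA words and 1 octamer. The weakest, at chr8:94589519-94589882, scored 106.35, 95.65 and 142.59. The SOX word was present in 6 of the 7 sites, the octamer in 3 and the composite word in 1.

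Meis1 (ENSMUSG00000020160) encodes a TALE homeodomain cofactor of HOX proteins. Of its 7 sites, 2 lay toward Etaa1 and 5 toward Spred2. The strongest of them by lowest percentile, at chr11:19454558-19455013, scored 183.45, 194.75 and 390.4, and the site closest to Spred2, at chr11:19544397-19544867, scored 143.48, 64.58 and 107.42. Between the Iroquois homeobox genes Irx2 and Irx4 on chromosome 13, 4 sites had scores of 185.8 to 695.21 (replicate 1), 88.52 to 332.24 (replicate 2) and 185.4 to 561.25 (replicate 3). All 4 sites there are flanked by list members on both sides. Zfhx3, a large zinc finger homeobox gene, flanked 5 sites, and Lmo4, a LIM-only cofactor, 4.

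Sox4, a SOXC gene of differentiating neurons, flanked 3 sites, all inside the long noncoding RNA gene 2610307P16Rik. The site nearest to Sox4, 106366 bp from its TSS at chr13:28936320-28936970, scored 624.0, 464.19 and 751.35. The other 2 scored 94.91, 90.93 and 153.67, and 353.5, 248.87 and 375.06. Desert sites beside the SOXB1 gene Sox2 were weak. Between Sox2 and Atp11b there were 2, of which the first, at chr3:35317537-35317844, scored 147.79, 54.4 and 74.41 and is 99.23% multi-copy. The second, at chr3:35529477-35529701, scored 51.94, 61.51 and 105.13. Both hold a SOX word, and neither an octamer or a composite word.

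Among signalling genes, Dll1 (ENSMUSG00000014773), which encodes a Notch ligand of neurogenesis, had 2 strong sites toward 2210404J11Rik. The site at chr17:15345003-15345490 scored 1698.2, 676.51 and 1320.7 and lies 158827 bp from the Dll1 gene body. It holds 3 SOX words, and its octamer and composite word overlap in the stretch printed above. The site nearer to Dll1, at chr17:15384635-15385533, scored 1209.8, 492.66 and 889.37 and holds 4 GACAA words and no SOX word. Jag1, another Notch ligand gene, flanked 3 sites, the nearest 113.2 kb from its TSS, and the neuregulin receptor gene Erbb4 flanked 3.

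Guidance and adhesion genes, which steer axons and hold neural cells together, flanked 130 desert sites (13.7%, 11.7 to 16%), against 2.12% of near intergenic regions and 6.12% of all intergenic common regions. Their gaps held 17.7% of desert bases, so the density there, 0.94 sites per Mb, was below the 1.22 of all deserts. Of the 94 such genes beside desert bases, 58 (61.7%) flanked a site, against 32% of all protein-coding genes beside desert bases. These shares of genes do not take the length of the gaps into account. Cntnap5a flanked 8 sites, Cdh2 (N-cadherin) and Cdh20 7 each, and Cntnap5b, Efnb2 (ephrin-B2) and Pcdh17 6 each. Olfactory, vomeronasal and taste receptor genes flanked 3 desert sites (0.316%, on 0.516% of desert bases) and 4.01% of near intergenic regions.

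The gap of 4283 kb between Cntnap5b and Cdh20 on chromosome 1 held 6 desert sites and no other common region. Its strongest site, at chr1:103580306-103580908, scored 909.61, 651.68 and 1233.83, holds 9 SOX words and lies 1911265 bp from the nearest TSS, that of Cntnap5b. The scores of the other 5 sites reached at most 351.07, 177.77 and 347.36 in the 3 replicates and at least 144.17, 86.31 and 180.62. Of the 5 desert sites farthest from a TSS in the genome, 4 lie in this gap. The remaining one, between Celf4 and Pik3c3, scored 53.51, 72.44 and 112.67 at a distance of 1972595 bp.

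The gap between Dsel and Cntnap5a held 6 sites over 1895 kb, whose lowest scores were 89.44, 55.49 and 90.22 and whose highest were 611.2, 441.4 and 859.1 in the 3 replicates. The gap between Cdh2 and Dsc3 held 7 sites over 2171 kb, with lowest scores of 52.97, 66.69 and 74.16 and highest of 521.9, 331.4 and 663.4. Beside Efnb2, 6 sites lay over 1516 kb, and 5 of them closer to Efnb2 than to Gm1840. In the gap between Nmbr and Cited2, a transcriptional coactivator gene, 6 sites all held the SOX word. Fam49a to Rpl36-ps3 (7 sites over 269.7 kb), Cd83 to Jarid2 (6) and Tmem182 to Gm9915 (5) complete the fullest gaps, with Gm17680 to Gm17391, where 5 of 6 sites were mostly multi-copy. The Tmem182 gap was taken from 6 gaps with 5 sites for its summed percentiles, so its median lowest percentile, 91.05, follows from that choice. The median in the Gm17680 gap was 34.01.

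**Figure D5:**
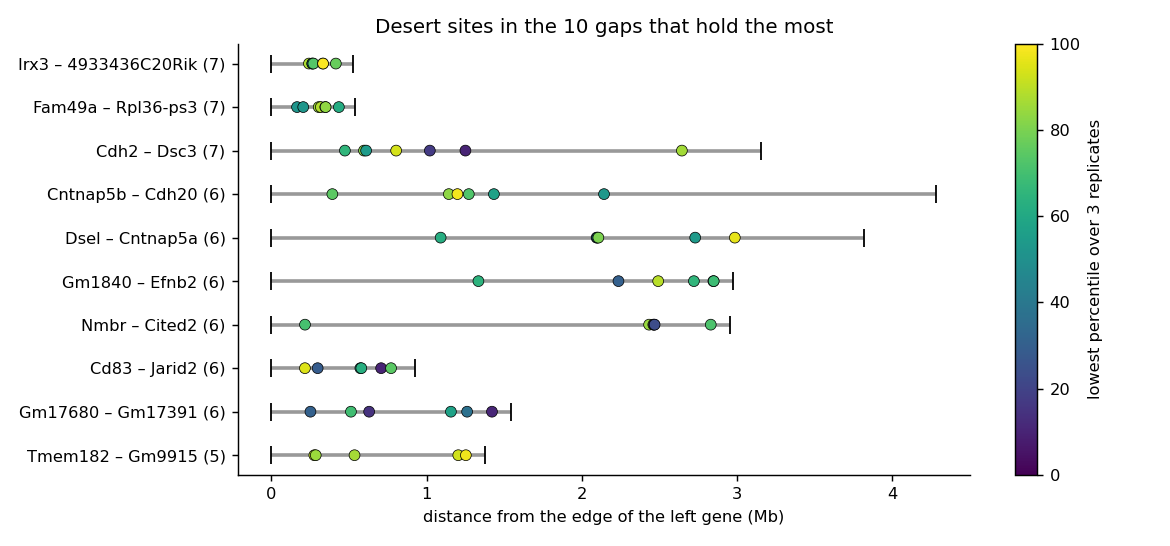
Positions of the desert sites in the 10 gaps with the most of them, in Mb from the edge of the left gene, with the gap drawn as a bar between its gene edges and the number of sites in brackets. Colour gives the lowest percentile over the 3 replicates. The 7 Irx3 sites lie within 173.9 kb, and the 6 sites between Cntnap5b and Cdh20 within 1750 kb.

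The desert site with the highest lowest percentile was an outsize region. At chr17:39979869-39985780, between Gm20516 and Pgk2, it was 5912 bp wide with 64.46% GC, scored 3100 in each replicate and overlaps the annotated pseudogene AY036118. The value 3100 looks like an upper limit of the scores in these lists, and it is given here as a saturated value. Exactly 3100 was given to 7 peaks in the first list, 1 in the second and 27 in the third, and 2 peaks of the third list scored higher. The share of its 50-base sequences found in several places of the reference was 9.381%. Whether the cells carry more copies of it than mm9 holds was not tested, and its scores are given with that limit. The next by lowest percentile was at chr4:33910756-33911438, between Rngtt and the cannabinoid receptor gene Cnr1, with scores of 1604.36, 1076.66 and 2183.89. It lies 100510 bp from the Cnr1 TSS and is therefore also 1 of the 5 sites just inside the limit of 100 kb. The site between Kcnj2 and Gm11678, at chr11:111704956-111705634, scored 1412.38, 989.83 and 2079.85, and lies in the long desert between the potassium channel gene Kcnj2 and the region of Sox9. The fourth was the Irx3 site above.

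The fifth site by lowest percentile, between Gm5356 and Tox3 (an HMG-box gene), scored 1170.49, 899.01 and 1585.73. The order by score within a single replicate differed. The site between Gm9376 and Abcc4 scored 1424.41, 836.06 and 1526.5. That between Edn1, the endothelin gene, and Phactr1 scored 1303.61, 826.58 and 1776.48. The site between Pxmp3 and 1700008P02Rik scored 1889.38, 798.03 and 2795.49, holds no SOX, GACAA, octamer or composite word, and has 44.48% of its 50-base sequences in several places. The site between Fam98a and Gm16391 scored 950.2, 761.58 and 1243.66, and the Ahr site completes the 10.

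Of the sites with both an octamer and a SOX word, those with the highest lowest percentile included the Irx3 and Dll1 sites above. The site between Arhgap15 and Gtdc1 scored 757.88, 614.09 and 1060.96 and holds 4 SOX words. The site 150915 bp from the Pik3c3 TSS scored 817.84, 538.52 and 879.15.

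At the limit of 100 kb, the 5 sites just inside lay 100022.5 to 100510 bp from a TSS, of Tmem200a, Fgf20, 9530002B09Rik, Dusp21 and Cnr1. Their scores ran from 75.18 to 1604.36 in replicate 1. The 5 intergenic regions just outside lay 98714.5 to 99602.5 bp from the TSS of Gm8882, Mbl2, Gm11074, Trp63 or 9230113P08Rik, with scores from 50.82 to 360.86 in replicate 1.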

How the data were processed

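The authors aligned reads of 3 SOX3 ChIP samples and 1 input to mm9 with Bowtie 1.0.0 (version from the submitters' processing notes) and called peaks per replicate with MACS (bandwidth 300, model fold 10 to 30, p of 1e-05, input as background). The deposited lists give positions and a score per peak, 10 times the negative log10 of its p-value, with no normalization between replicates. Depth, and the input sample's own values, were not analysed here. Regions were merged and classed with Python 3.11.15 and numpy 2.4.6 against NCBIM37 (mm9) and GENCODE vM1, whose protein-coding genes include predicted ones, and tested on simulated peaks. Words were searched on both strands. Shares have Wilson intervals, and differences Newcombe intervals adjusted by Bonferroni over 47 comparisons. Intervals cover counting error only. Named sites were the 10 fullest gaps (ties by summed lowest percentile) and the 10 sites with the highest lowest percentile that were not mostly multi-copy. Also named were the 5 farthest from a TSS, those flanked by Sox1, Sox2 or Sox3 and the 5 on each side of the limit. Of the sites with octamer and SOX word, the 5 with the highest lowest percentile were named. Other flanking genes, such as Meis1, Sox4 and those given with their counts, were named after their values were seen. A site of the rule for Sox1, Sox2 or Sox3 and a site with octamer and SOX word are not reported here. Members and lists were chosen with earlier results of these data known. Alternatives changed the peak threshold, the distance, the annotation, multi-copy sites, list sizes, the overlap, the word window and the replicates.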

Additional observations from a re-analysis of the deposited data

How the results depend on the processing

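Of 73 values recomputed under other settings, 43 stayed within 1.5 times the reported count or within the interval of the reported share, and 30 moved outside. At a p-value of 1e-10 or less there were 509 desert sites in 359 gaps, 18.96% of common regions, with the SOX word in 76.42%, 5.501% mostly multi-copy and a median within-list percentile (mean over replicates) of 89.59, against the reported 79.24. With a distance of 50 kb there were 1430 sites, 26.69% of regions, with the SOX word in 69.51% and 14.55% mostly multi-copy. With 200 kb there were 555 sites in 338 gaps, 10.36%, and 76.04% held the SOX word. When genes of every biotype counted, there were 519 sites in 367 gaps, 9.686% of regions, and 7.514% were flanked by a developmental transcription factor gene. Without mostly multi-copy sites the SOX word was in 76.85%. Over all desert sites, 200 bp windows held it in 58.38%. With equal numbers of peaks per list the median percentile was 84.93 and 5.939% were mostly multi-copy. Leaving out each replicate in turn gave 960 to 1459 sites, 17.52 to 18.81% of regions, the SOX word in 60.63 to 71.35%, a median percentile of 69.17 to 79.69, 10.73 to 26.94% mostly multi-copy, 10.76 to 12.19% beside a transcription factor gene and 571 to 733 gaps. The sites rose to 1459, and the multi-copy share to 26.94%, without replicate 1, and the cause was not tested. The multi-copy share has no value without multi-copy sites, where it is 0 by construction. The share of composite-word sites with a like region was 53.15% at an identity of 60%, 45.95% at 80% and 45.71% without mostly multi-copy sites, 3 settings chosen after seeing the data. In a further setting chosen after seeing the data, without regions whose composite word had a like region, the desert share was 1.6 points above that inside genes, against the reported 5.02, and its adjusted interval held 0, while the difference from promoter regions was 3.96 points and its interval did not. The SOX word's class differences were recomputed under the 11 other settings, also after seeing the data, and in 27 of 33 values the adjusted interval still left out 0. It held 0 for near intergenic regions at a p-value of 1e-10 or less (3.56 points), and for regions inside genes at that p-value (4.96), at 50 kb (4.18), with genes of every biotype (6.71), without mostly multi-copy regions (5.27) and at a reciprocal overlap of 50% (5.43). The cause was not tested.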

Other observations

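Stretches like those around the composite words were also counted outside the SOX3 sites, in the whole reference. The composite word TTGTNATGC occurs 70590 times in mm9, and 433 of these words (0.613%) lie in a common region. Of the words whose 40 bases on each side were at least 70% identical to the consensus of the first group, 72 of 361 (19.9%) lie in a common region, as do 40 of 198 (20.2%) for the second group and 14 of 20 (70%) for group 3. Among the remaining 70011 words the share was 0.439%. Within desert bases, 28 of 132, 10 of 79 and 7 of 8 copies lay in a common region, against 66 of 22442 other words (0.294%). Each consensus was built from the bound copies themselves, so these shares describe the groups and were not tested.

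Some desert sites lie in or beside noncoding genes, which the rule does not count as genes. The midpoint of 46 sites (4.85%) fell inside an annotated noncoding gene or pseudogene, and 2.82% of desert bases lie in one. Long intergenic noncoding RNA genes held 17 sites (1.79%, on 0.843% of desert bases). Among them were Rmst, a noncoding RNA of neural progenitors, with a site scoring 100.11, 131.34 and 214.01, and Pvt1 beside Myc, with 2 sites. The Pvt1 sites scored 162.18, 175.96 and 334.92, and 57.46, 57.9 and 126.19. The start of a noncoding gene, pseudogene or immune receptor segment lay within 2000 bp of 25 sites (2.63%, 1.79 to 3.86%), and 1.36% of desert bases lie that close to one. The snRNA genes among these are U1, with a lowest percentile of 97, and 2 genes named U2, with 95.42 and 53.07.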
